A study of Danio rerio with 2 samples.

Results

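A set of 10 genes of the pituitary gland and hypothalamus, or of the peptides they release, were followed in whole zebrafish larvae after swim training. They were pomca, prl and tshba of the pituitary, and npy, agrp, hcrt, avp, oxt, crhb and crhbp of the hypothalamus. Members were taken by name, and a probe was assigned to a gene when its accession matched a RefSeq transcript of that gene (assembly GRCz12tu). Of 12900 genes with a named probe, 9 were members. They held 13 of the 43600 probes that had a spot without an outlier flag on either array. No such probe was paired here with agrp. Of the 13 probes, 10 were well above background in both channels of both arrays, which is called measured below. These covered 6 genes, pomca, npy, avp, oxt, crhb and crhbp.

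RNA came from wild-type larvae of the cross of Wageningen and Tubingen wild types (Zod2) at 10 days after fertilisation. The trained pool held 10 larvae that swam in daily sessions of 3 hours from day 5 to day 10, and the control pool held 10 larvae without training. Equal RNA of each larva was pooled, and both pools were hybridised together on 2 dual-colour Agilent arrays with the dyes exchanged. Array 1 carried the trained pool in Cy5 and array 2 carried it in Cy3, per the sample titles, channel labels and labelling protocol, although the series' design text repeats a single orientation. The arrays measure the same 2 pools, so there is 1 pool per condition, no spread between fish, and no p-value.

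These genes encode the signals of the brain's hormone centre. Neurons of the preoptic area and hypothalamus make corticotropin-releasing hormone (crhb), which drives the pituitary to release adrenocorticotropin, cut from the precursor encoded by pomca, and so raises cortisol. The vasotocin gene avp and the isotocin gene oxt are the fish counterparts of mammalian vasopressin and oxytocin, and their peptides are released from the posterior pituitary and within the brain. Neuropeptide Y (npy) and agouti-related peptide (agrp) promote feeding, orexin (hcrt) promotes wakefulness, prolactin (prl) acts on ion balance, and tshba encodes the specific subunit of thyrotropin. Because whole larvae were used, fewer cells of a type and less RNA per cell cannot be told apart. Nor can a signal be assigned to the pituitary or hypothalamus.

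No hormone gene differed between the pools by the size rule, which asks that each array show the trained pool 1.5-fold or more to one side. None of the 6 measured genes was past it in either direction, against 0.638% of 11121 measured genes higher and 0.054% lower. After loess the isotocin gene oxt had the highest ratio and the vasotocin gene avp the lowest, while in the ratios as deposited pomca, at -0.334, lay just below avp, at -0.330. This pair of related hormones, oxt and avp, stood on opposite sides. Both arrays gave avp lower in the trained pool and oxt, by its brighter probe, higher. The second oxt probe stood at -0.01 on array 1 and 0.32 on array 2. After loess the other measured genes lay within 0.18 of no difference on the log2 scale. The median log2 ratio of the 6 genes was 0.04, and that of all measured genes was -0.00.

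**Figure D1:**
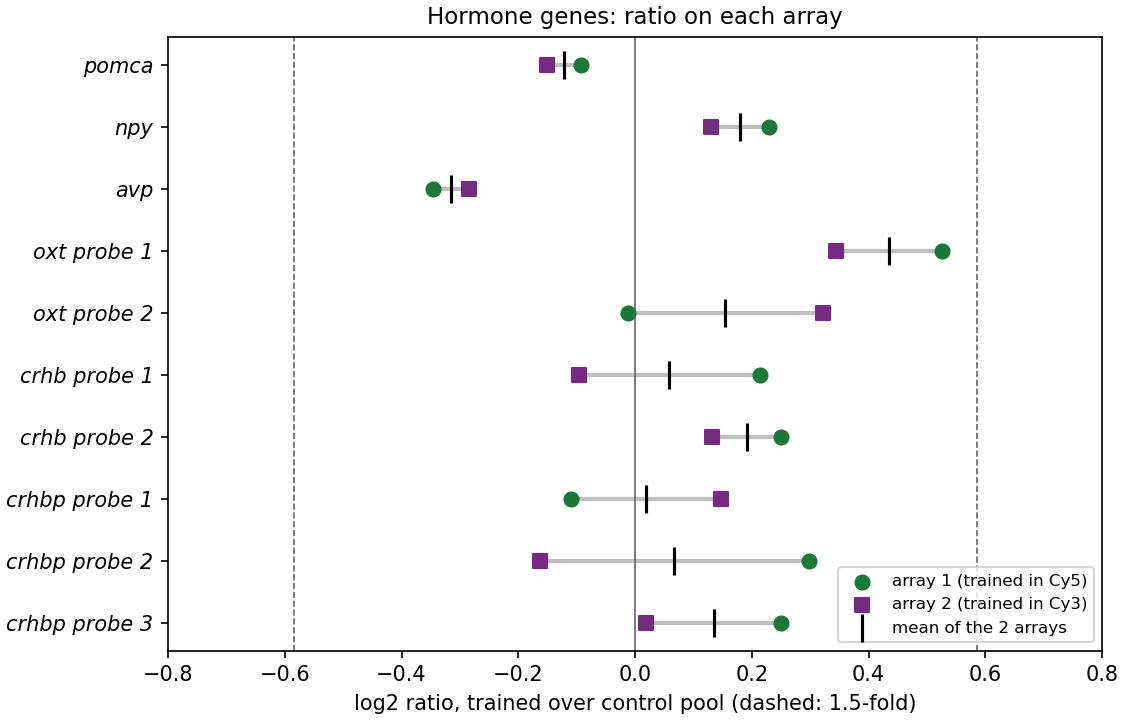
Log2 ratio of the trained over the control pool (x axis) for each of the 10 measured probes of the hormone genes (y axis), on array 1 (circles), array 2 (squares) and as the mean of both (ticks), with dashed lines at 1.5-fold. The brighter oxt probe lies furthest to the right at a mean of 0.43, avp furthest to the left at -0.32, and no probe crosses a dashed line on both arrays.

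Isotocin was represented by 2 probes of NM_178291. The brighter one had normalised intensities of 720.5 in the control pool and 1037 in the trained pool on array 1, and of 811.3 and 1030 on array 2. Intensities here follow background correction and normalisation and include an added constant of 50. Both trained values lay above both control values. Here and for the genes below, the share of all measured probes whose pools do not overlap was not counted. The log2 ratio of the brighter oxt probe was 0.53 on array 1 and 0.34 on array 2, a mean of 0.43 (SD between the arrays 0.13) or 1.35-fold. The second oxt probe read 406.8 in control and 403.2 in trained on array 1, and 383.9 and 479.9 on array 2. Its ratios were -0.01 and 0.32, so it was level on the first array and higher on the second, with a mean of 0.15. The probes thus disagreed on array 1. Over 6037 genes with a second measured probe, the SD of a single probe's mean ratio over both arrays was 0.12. It is the SD of the difference between the 2 probes divided by the square root of 2, so not the SD of the gap itself.

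The spots of these probes lie in different parts of the slide. On array 1 the loess-normalised ratio of all measured probes drifted down the slide, from a median of 0.23 in rows 1 to 40 to -0.18 in rows 481 to 520. Array 2 ran from -0.18 in the first of these bands to 0.10 in rows 361 to 400. A smooth surface over rows and columns was therefore fitted on each array and taken off, a step chosen after the data were seen. At the second oxt probe, in row 447, this surface was -0.23 on array 1, and at the brighter probe, in row 197, it was 0.02. With the surface off, the second probe stood at 0.22 and 0.25 on the arrays and the brighter probe at 0.51 and 0.31, so a gap remained on array 1. In the deposited ratios the second probe stood at 0.43 and 0.28 and the brighter one at 0.55 and 0.29. In both versions each oxt probe was higher in the trained pool on both arrays. The part of position in the gap between the probes was not tested. Across the same 6037 genes, the mean ratios of the 2 probes correlated with r = 0.61 after loess, 0.74 with the surface off and 0.71 as deposited, given as a description over genes that share the arrays.

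**Figure D2:**
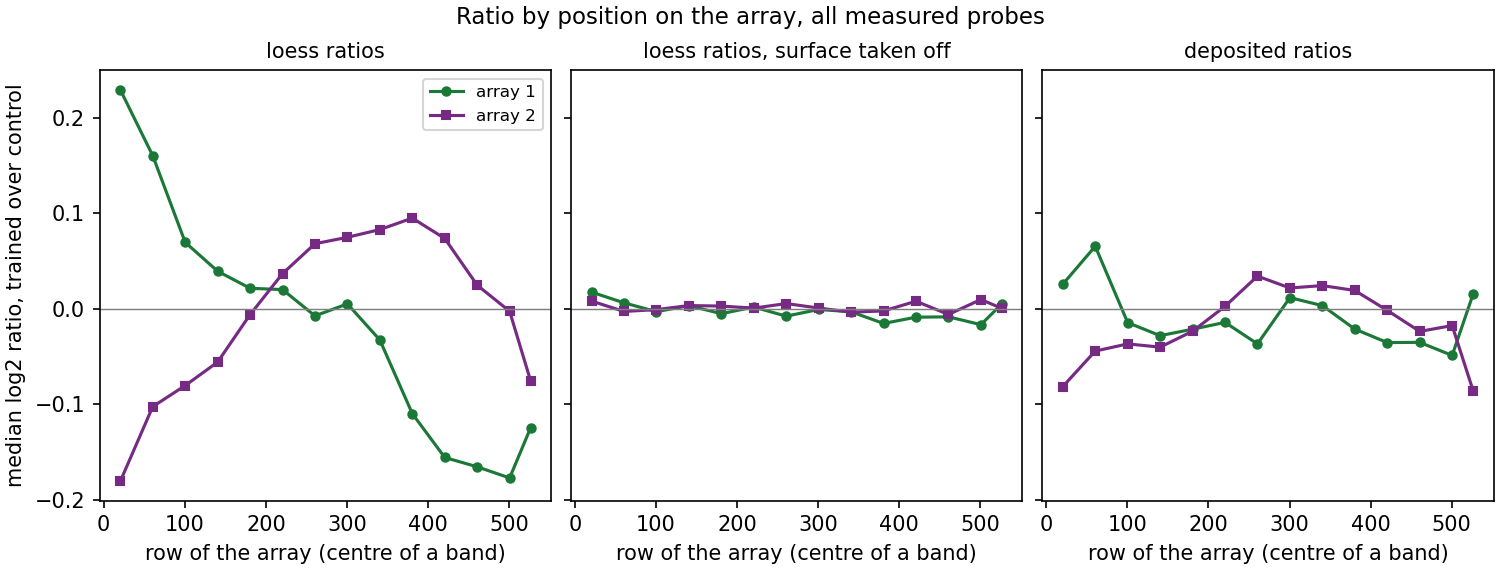
Median log2 ratio of trained over control (y axis) of all measured probes in bands of 40 rows down the slide (x axis), for array 1 (circles) and array 2 (squares), after loess (left), with the surface taken off (middle) and as deposited (right). After loess the medians run from 0.23 to -0.18 on array 1 and from -0.18 to 0.10 on array 2, and with the surface off every band lies within 0.02 of 0.

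Vasotocin had 1 probe, of NM_178293. Its normalised intensity was 461.4 in control and 363.0 in trained on array 1, and 461.3 and 378.8 on array 2. Both trained values were below both control values. The log2 ratio was -0.35 on array 1 and -0.28 on array 2, with a mean of -0.32 (SD between the arrays 0.04), or 1.24-fold lower in the trained pool. The fitted surface at this spot was -0.24 on array 1 and 0.14 on array 2, and with it off the ratios were -0.10 and -0.43. The mean then stood at -0.27, and in the deposited ratios at -0.33 with -0.20 and -0.46 on the arrays. The sign of avp was the same on both arrays in each of these versions. Its ratio on array 1 went from -0.35 to -0.10 when the surface was taken off. The software's error of the deposited ratio was 0.205 on array 1, against -0.204, and 0.209 on array 2, against -0.456.

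At a threshold of 1.2-fold on both arrays, oxt was higher and avp was lower. Of all measured genes 3.74% were higher by that threshold and 1.35% lower. The call of avp was also lost with no background correction, where array 2 stood at -0.26, and with median centring, where it stood at -0.06. With the surface off, oxt alone was past it, against 3.52% of genes higher and 0.944% lower. In the deposited ratios oxt was past it as higher and pomca as lower, against 5.16% and 2.33%. A share this size over 6 genes rests on at most 1 gene in each direction, so nothing particular to the hormone genes is read from it.

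**Figure D3:**
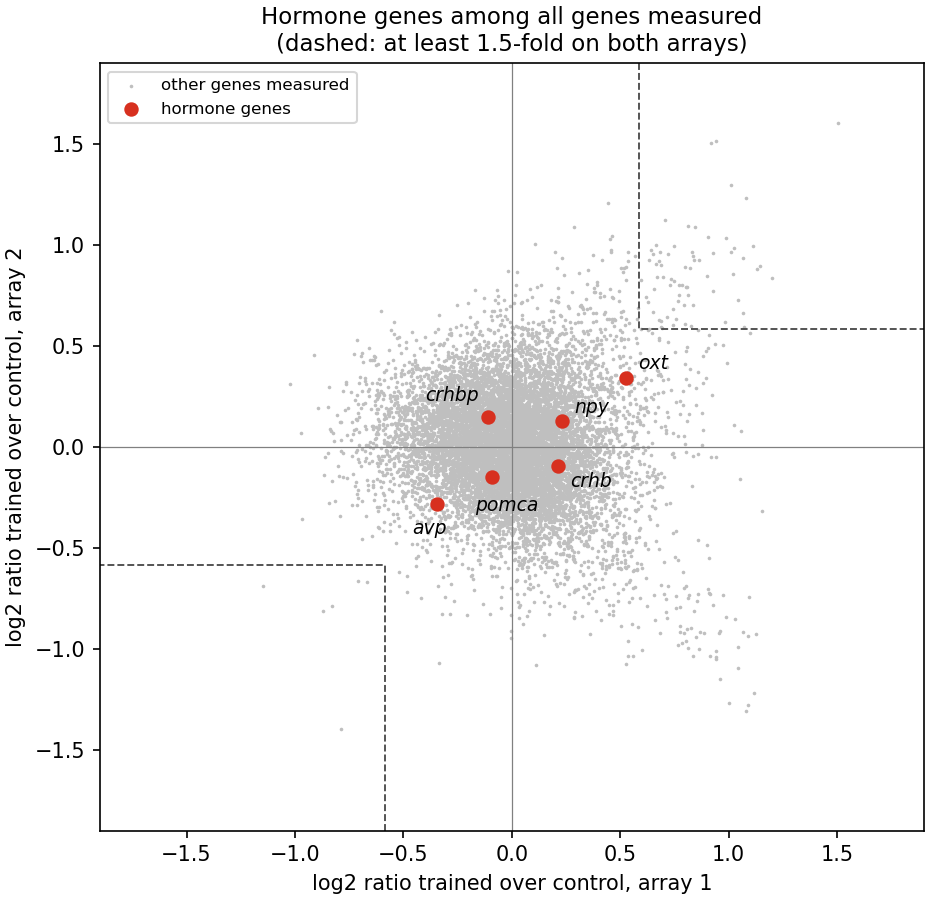
Log2 ratio of trained over control on array 1 (x axis) against array 2 (y axis) for all 11121 measured genes (grey) and the 6 measured hormone genes (red, named), with dashed lines bounding the corners of at least 1.5-fold on both arrays. The hormone genes lie inside the main cloud, with oxt at 0.53 and 0.34 and avp at -0.35 and -0.28 outside its dense centre, and none in a dashed corner.

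Corticotropin-releasing hormone was higher in the trained pool on both arrays by only 1 of its 2 probes. The brighter probe of crhb read 317.2 in control and 367.8 in trained on array 1, and 393.1 and 367.8 on array 2. Its ratios of 0.21 and -0.10 were opposite, and the pools overlapped. The second probe read 195.5 and 232.6 on array 1 and 191.7 and 210.0 on array 2, with ratios of 0.25 and 0.13. The surface at the brighter probe was 0.16 on array 1 and -0.22 on array 2. With it off the brighter probe stood at 0.05 and 0.12 and the second at 0.11 and 0.13. In the deposited ratios the means were 0.18 and 0.24, so both crhb probes were slightly higher in these versions. On array 1 the deposited ratios of 0.13 and 0.17 were below the software's error of 0.21 for each probe. On array 2 those of 0.24 and 0.31 were above an error of 0.21.

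The gene crhbp encodes the protein that binds corticotropin-releasing hormone and keeps it from its receptors. Its 3 probes did not share a direction. The brightest read 334.3 in control and 309.8 in trained on array 1, and 272.5 and 301.7 on array 2, with ratios of -0.11 and 0.15. Its mean changed sign with the processing, from 0.02 after loess to -0.07 with the surface off and -0.03 as deposited. The second probe stood at 0.30 and -0.16. The third, the dimmest, stood at 0.25 and 0.02, with a mean of 0.13 after loess and 0.46 as deposited. No direction is given for crhbp.

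Of the members listed above for the pituitary (pomca, prl and tshba), only pomca was measured. It encodes the precursor of adrenocorticotropin and melanocyte-stimulating hormone. Its 1 probe was dim, with spot medians of 72 in control over a background of 25 and 114 in trained over 83 on array 1. On array 2 they were 119.5 over 84 in control and 68 over 23 in trained. The normalised intensities were 96.4 and 90.3 on array 1 and 104.5 and 94.1 on array 2, in control and trained, so both trained values were below both control values. The ratios were -0.09 and -0.15, with a mean of -0.12. For a spot this dim the added constant of 50 weighs heavily. With an added constant of 0 the mean was -0.25, in the deposited ratios it was -0.33, and with the surface off it was -0.07 with -0.00 on array 2. The software's own error of the deposited ratio was 0.28 on array 1 and 0.30 on array 2 (log2), against deposited ratios of -0.35 and -0.32.

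Neuropeptide Y was measured by 1 probe, of NM_131074. It read 387.5 in control and 454.4 in trained on array 1 and 370.1 and 404.9 on array 2, so both trained values exceeded both control values. The ratios were 0.23 and 0.13, with a mean of 0.18. The fitted surface at this spot was 0.09 on array 1 and 0.12 on array 2, and with it off npy stood at 0.14 and 0.01. The deposited ratios were 0.09 and 0.08, each below the software's error of 0.20 and 0.21.

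**Figure D4:**
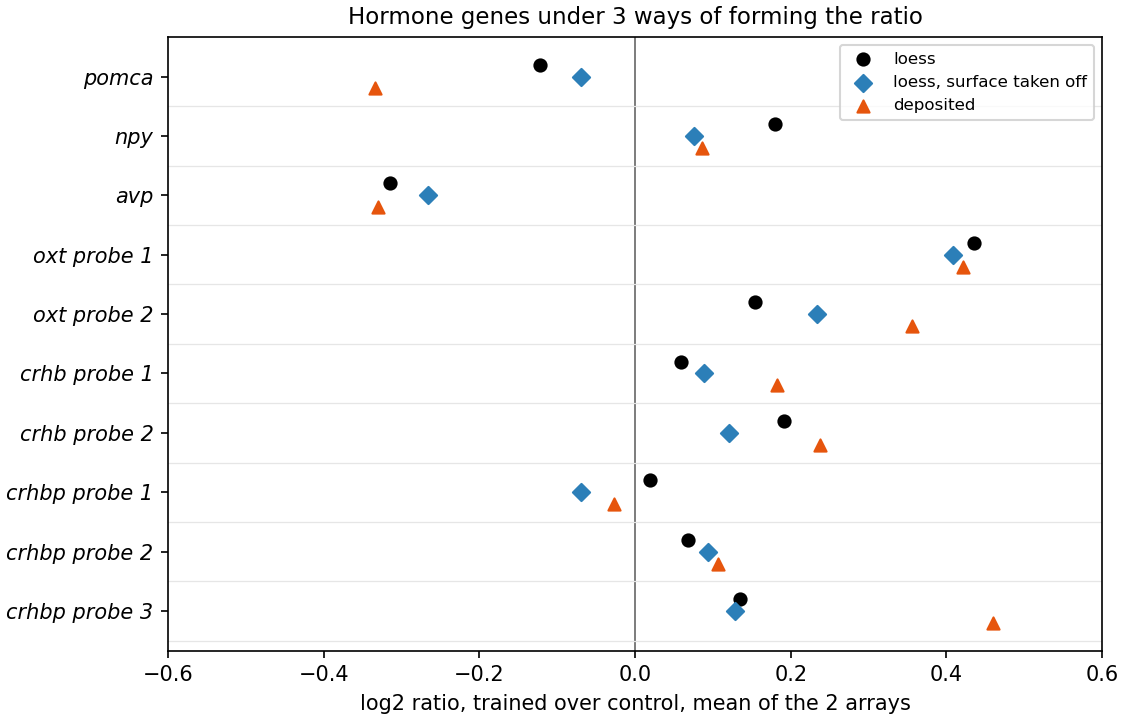
Mean log2 ratio of trained over control over the 2 arrays (x axis) of each measured probe of the hormone genes (y axis), after loess (circles), with the surface taken off (diamonds) and as deposited (triangles). The points of oxt stay right of 0 and those of avp and pomca left of it, while the brightest crhbp probe falls on either side.

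By sign alone, 2 of the 6 measured genes (npy and oxt) had higher values in the trained pool on each array and 2 (pomca and avp) had lower ones, and in 2 (crhb and crhbp) the arrays had opposite signs. Of all measured genes, also the comparison for the gene lists below, 24.3% were higher, 22.1% lower and 53.6% opposite. With the surface off 3 were higher and 3 lower, against 26.8% and 24.6% of genes, and 48.6% of genes were opposite. In the deposited ratios 3 were higher, 2 lower and 1 opposite, against 25.1%, 26% and 48.9%. Across 30886 measured probes Pearson's r between array 1 and array 2 was -0.04 after loess, 0.10 with the surface off and 0.11 as deposited, so a shared sign on the arrays separates few genes.

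Prolactin, thyrotropin and orexin were not measured. The prl probe read 38 over a background of 28 in control and 83 over 89 in trained on array 1, and was not well above background in any of the 4 channels. Likewise the tshba probe was at 34.5 over 23.5 and 90 over 81, with none of the 4 channels well above background. The hcrt probe was well above background in 1 of the 4, the trained pool on array 2, at 47 over 22. The control pool in the same dye, on array 1, read a similar 45 over 23 without passing. In the other dye hcrt read 95 over 85 in trained on array 1 and 92 over 85 in control on array 2. No fold is given for these genes. Their deposited ratios carried software errors from 0.60 to 2.36 on the log2 scale. A probe near background shows neither that the transcript was absent nor that it was the same in both pools.

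**Figure D5:**
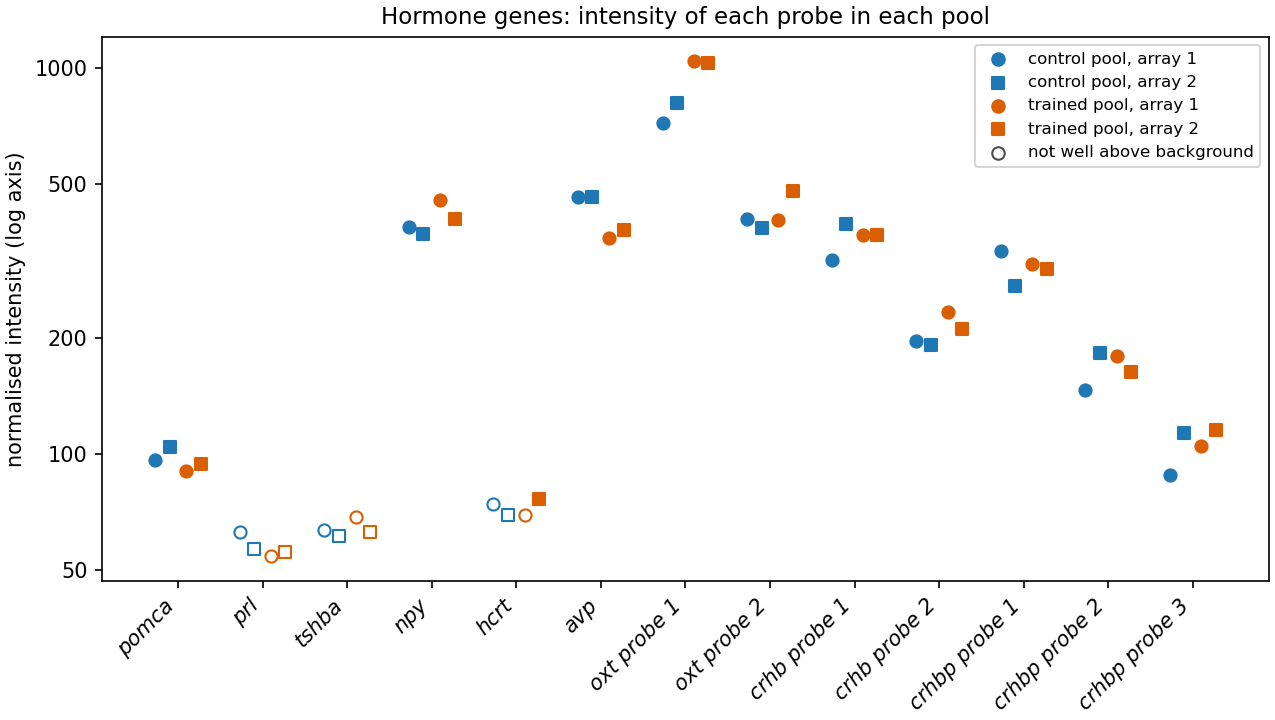
Normalised intensity (y axis, log scale, with the added constant of 50) of each of the 13 probes of the hormone genes (x axis) in the control and trained pools on both arrays, with open symbols where a spot was not well above background. The probes of prl and tshba are open throughout and lie near the constant, and hcrt is filled in 1 of 4 channels. Among the measured probes the pools do not overlap for oxt probe 1, avp, npy, pomca and crhb probe 2. These intensities do not have the surface taken off. The share of all measured probes without overlap was not counted, so nothing particular to the hormone genes is read from it.

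Other pituitary hormones were no better seen. Of 9 listed (gh1, smtla, smtlb, cga, fshb, lhb, pomcb, prl2 and tshbb), 8 had a probe here and 0 were measured, whereas 86.2% of all genes with a probe were. Growth hormone, gh1, was well above background in 3 of 4 channels, both of the trained pool and 1 of the control pool. The pituitary transcription factors pou1f1 and lhx3, which specify hormone-producing cells, gave the same count. Over all spots, the control pool on array 2 had the fewest well above background, 71.3% against 77.3% to 84.2% in the other channels. Of 13 pituitary factors and hormone-processing genes 11 had a probe here and 8 were measured. By sign, 3 of the measured genes were higher, 1 was lower and 4 were opposite between the arrays. The secretory granule gene scg5, whose product chaperones a prohormone convertase, stood at 0.30 and 0.27, and at a mean of 0.19 with the surface off. For scg2b, a granule protein, the brightest probe had a mean of 0.24, and the other probes, at means of 0.05 and 0.03, had opposite signs on the arrays. The granule gene scg3 had a mean of 0.06. For pitx3, a factor of pituitary and lens, the brightest probe had -0.14, with opposite signs on the arrays once the surface was off. The other pitx3 probes had means of 0.06, with opposite signs on the arrays, and -0.14.

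The list of other hypothalamic releasing and feeding peptides held 32 genes, of which 22 had a probe here and 20 were measured. By sign 10 were higher, 2 were lower and 8 were opposite between the arrays, against 24.3%, 22.1% and 53.6% of all measured genes. The list's median was 0.12, and 0.09 both with the surface off and as deposited. After loess none was past the 1.5-fold rule. The gonadotropin-releasing hormone gene gnrh3 stood at 0.59 and 0.42. In the deposited ratios, at 0.70 and 0.65, it was past 1.5-fold higher, against 0.944% of all measured genes. Its other probe was not measured. The melanin-concentrating hormone gene pmchl stood at 0.62 and 0.23 and qrfp, which encodes an RFamide peptide, at 0.30 and 0.22, with a mean of 0.16 once the surface was off. The nesfatin precursor nucb2a was lower, at -0.41 and -0.11, and moved to a mean of -0.13 with the surface off. The growth hormone-releasing hormone gene ghrh was chosen after its values were seen. It stood at -0.27 and -0.09 after loess, a mean of -0.18, and at a mean of -0.14 with the surface off. As deposited it stood at -0.82 and -1.74, a mean of -1.28, and was past 1.5-fold lower, against 0.135% of all measured genes. Only 1 of its 2 probes was measured, and the cause of the gap between the versions was not tested.

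Neuronal markers were measured for 9 of 10 genes. By sign 3 were higher, 1 was lower and 5 were opposite between the arrays. Their median was 0.07, or 0.11 with the surface off and 0.02 as deposited. The neuronal RNA-binding gene elavl3 had a mean of 0.29 that fell to 0.12 with the surface off, and the brightest probe of the vesicle fusion gene snap25a had 0.26. With the surface off this snap25a probe had 0.16, with opposite signs on the arrays there and as deposited, and its other probes had means from -0.02 to 0.14 after loess. The glutamate transporter gene slc17a6b had 0.21, which became 0.11 with the surface off and -0.01 as deposited, and the growth cone gene gap43 had -0.20, then -0.12. The labelled tissue, whole larva, was checked on markers of muscle, liver, eye, pancreas, skin, gut and glia. Of these 24 markers 22 had a probe here and 22 were measured, which covers each of the 7 tissues. As 86.2% of all genes with a probe were measured, this detection says little about the tissue. The 2 measured liver markers had a median of 0.52 after loess, with 1 higher and 1 opposite between the arrays. Both were higher on both arrays with the surface off and as deposited, at medians of 0.49 and 0.51. The 4 muscle markers had a median of -0.19 after loess, with 1 lower and 3 opposite. In the other 2 versions 2 were lower and 2 opposite, at medians of -0.12 and -0.14. Medians of the other tissues after loess were 0.04 for eye, 0.08 for pancreas, 0.03 for skin, 0.11 for gut and 0.12 for glia. The part of neuronal, liver or muscle RNA in the ratios of the hormone genes was not tested.

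Few receptors of these hormones were measured. The list held 30 receptor and accessory symbols, older names included. They led to 18 genes with a probe, of which 3 were measured. The neuropeptide Y receptor gene npy8br stood at -0.18 and -0.15, while the vasotocin receptor gene avpr2l and the corticotropin-releasing hormone receptor gene crhr2 were opposite on the arrays. The melanocortin receptor gene mc4r, the prolactin receptor gene prlrb and the isotocin receptor gene oxtra were well above background in 3 of 4 channels each. Of the rest, 4 genes were so in 1 or 2 channels and 8 in none.

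Downstream of crhb and pomca, 12 of 17 genes of the interrenal gland and of corticosteroid signalling had a probe here and 8 were measured. By sign 2 were higher, 2 were lower and 4 were opposite between the arrays. Their median was 0.02 and turned to -0.04 with the surface off and as deposited. The ferredoxin gene fdx1b, which passes electrons to steroid enzymes, stood at 0.22 on each array, with a mean of 0.16 once the surface was off and 0.36 as deposited. The cortisol-making enzyme gene cyp11c1 had a mean of 0.10 after loess and -0.03 with the surface off. Its other probe stood at 0.13 and -0.05 on the arrays after loess. The receptor gene nr3c2 had a mean of -0.07 and nr5a1b, a regulator of steroid enzymes, -0.10, which was 0.00 as deposited. In the thyroid axis 10 of 21 genes had a probe here and 7 were measured, with a median of -0.01. By sign 3 were higher, 1 was lower and 3 were opposite between the arrays. The deiodinase gene dio1, which acts on thyroid hormone outside the gland, had 3 probes at means of 0.50, 0.35 and 0.32, each higher on both arrays. Its paralogue dio2 stood at 0.13 by its brightest probe, then 0.04 with the surface off. The other measured dio2 probe was lower on both arrays, at -0.02 and -0.07. The brightest probe of the transcription factor pax2a stood at 0.11, then 0.04 as deposited. The other measured pax2a probes had means from -0.03 to 0.09 after loess. The thyroid and forebrain factor nkx2.1 stood at -0.04, which turned to 0.02. None of these lists had a gene past the 1.5-fold rule after loess.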

How the data were processed

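Per the labels' protocols, equal RNA of 10 larvae was pooled per condition and each pool was labelled with both dyes. Per the submitters' processing notes, the authors used Agilent Feature Extraction 10.5.1.1. The deposited scanner files hold median spot and background intensity per channel, processed signals, and the log10 ratio of Cy5 over Cy3 with its error, after the software's background, detrending and dye steps per the file headers. The deposited series value table repeats that log10 ratio with array 2 turned, to within 1.65e-05 on the log2 scale, and its columns have a median of 0. Other deposited columns are flags.

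Ratios were formed with limma 3.58.1 in R 4.3.3 from median intensities: normexp with an offset of 50, then loess within arrays, giving no weight to control and outlier spots. The sign of array 2 was turned. Spots with an outlier flag on either array were left out. The remaining replicate spots were averaged within a probe, and then both arrays, which are a technical dye swap. The brightest measured probe stood for a gene. Intensities per pool had the arrays' average brightness made equal. Accessions named 25171 probes and left 18429 unnamed. Of 43600 probes 30886 were measured, and no spot was saturated. The number of arrays limits the precision. The background and loess steps and the size rule, but not the surface, were tested on simulated spots with known ratios. The spots given a ratio were bright and had no drift over the slide. Their ratios were larger than those of the measured hormone genes. Small ratios and dim spots were thus not covered. Python 3.11.15, numpy 2.4.6, pandas 2.3.3 and matplotlib 3.10.9 did the rest.

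No test was possible with 1 pool per condition. The size rule was 1.5-fold on both arrays. The text names all members and, from each list, genes past the rule or otherwise up to 4 with the largest mean ratio of one sign on both arrays, neurons included. Also named are ghrh, chosen after its values were seen, and genes given for their detection or opposite signs alone. Other markers of the labelled tissue are given as counts and medians. Members and lists were chosen with earlier results of these data known. Sequences of probes or peptides were not used here.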

Additional observations from a re-analysis of the deposited data

How the results depend on the processing

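All values compare 1 pool with 1 pool, so the alternatives show processing and not spread between fish. The count of hormone genes past the 1.5-fold rule was 0 in each direction in every alternative except the 1.2-fold threshold, which gave 1 higher (oxt) and 1 lower (avp). Their median log2 ratio, 0.04, was 0.092 with median centring, 0.099 with the mean over a gene's probes, 0.0031 with the surface taken off (chosen after seeing the data), and 0.017 to 0.060 on single arrays. Over all probes, 147 higher and 13 lower became 230 and 35 with an offset of 0, 273 and 69 with the deposited ratios or the value table, 17 and 1 at 2-fold, and 967 and 363 at 1.2-fold. Median centring gave 6 lower, and single arrays gave 496 to 614 higher and 440 to 503 lower. On both arrays together, oxt ranged from 0.29 to 0.50, avp from -0.36 to -0.26, pomca from -0.33 to -0.07, npy from 0.08 to 0.23 and crhb from 0.06 to 0.18. The value table, which repeats the deposited ratios, and the looser detection rule could not move these values, and the mean over probes could not move pomca, npy or avp. Single arrays were left out of the sign counts. Of the other alternatives with a value of their own, 5 of 5 kept the sign for pomca, npy and avp. The counts were 6 of 6 for oxt and crhb, and 4 of 6 for crhbp. Array 1 alone gave crhb at 0.21 and crhbp at -0.11. Array 2 alone gave -0.10 and 0.15, so both genes changed sign. Each ratio pairs the trained and the control pool within a spot, but with 1 pool per condition no paired test was possible. Low signal over background limits pomca most, and leaves prl, tshba and hcrt without a ratio.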
